A study of Mus musculus with 6 samples.

Results

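The Myc, Max and Mxd network was described in LSK cells, which are bone marrow cells without lineage markers but with Sca-1 and c-Kit on their surface, among them blood stem cells and multipotent progenitors. Its 10 genes (Myc, Mycn, Mycl1, Max, Mxd1, Mxi1, Mxd3, Mxd4, Mnt and Mga) were taken by symbol from a table of 22381 genes, and each symbol stood on a single line. The cells came from C57BL/6 mice of 8 to 12 weeks. RNA sequencing compared 3 samples labelled Tgif1-/-, from mice labelled as lacking the homeodomain repressor Tgif1, with 3 samples labelled wild type (Tgif1+/+). The table gives 1 FPKM value per group, a level corrected for transcript length and library size, so no value, spread or depth of a single sample could be read. The labels do not tie the samples to separate animals, so the spread behind the authors' test may be technical.

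Myc, Mycn and Mycl1 are transcription factors of the basic helix-loop-helix leucine zipper class. They bind DNA only as a pair with Max, at a sequence called the E-box, and drive genes of ribosome production, metabolism and cell growth. Mxd1, Mxi1, Mxd3, Mxd4 and Mnt also pair with Max, but bring the Sin3 repressor complex to the same sites, and Mga pairs with Max inside a Polycomb complex. In mouse blood stem cells, Myc is known for setting the balance between self-renewal and differentiation.

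None of the 10 network genes was called different between the Tgif1-/- and wild-type groups. A gene was called where the authors' Cuffdiff test ran and its q, the p-value adjusted over all tested genes, was at or under 0.05. The test ran for 7 network genes and called 0 of them, against 0.662% of the 10730 tested genes. At an unadjusted p at or under 0.05 there was 1 network gene, Mga, against 5.41% of all tested genes. With so few tested genes, 1 gene is no share to read against that background. The test failed for Myc, Max and Mxi1, as it did for 24.2% of the 12452 genes that reached 1 FPKM in either group. These 3 genes have FPKM values but no error and no p-value. For 7 of the 10 genes the FPKM of the Tgif1-/- group lay within 10% of that of the wild-type group. The exceptions were Mycl1, Mnt and Mga.

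The group labels could not be checked on the targeted gene. Tgif1 was listed at 88.6 FPKM in the Tgif1-/- group and 71.5 FPKM in the wild-type group, its test failed, and the sources used here do not say which part of the gene was removed. Every direction below is therefore between groups as labelled. The defining LSK gene Kit, whose test failed, stood at 193 and 202 FPKM in the Tgif1-/- and wild-type groups, and Ly6a, which encodes Sca-1, at 120 and 88.9 FPKM. Markers of other blood cells differed between the groups. Summed over 9 B lineage markers the level was 59.2 FPKM in the Tgif1-/- group and 122 FPKM in the wild-type group, with 4 of 8 tested called lower (0.373% of all tested genes were). Summed over 7 mast cell and basophil markers it was 379 FPKM in the Tgif1-/- group and 151 FPKM in the wild-type group, with 4 of 7 called higher (0.289% of all tested genes were). No marker of either list was at 0 in a group. The sums over 10 neutrophil markers were 3771 and 4160 FPKM in the same order, most of it Mpo, and the median log2 ratio of the 7 tested was -0.85, with 0 called and 4 lower at an unadjusted p at or under 0.05. Over 6 erythroid markers the sums were, in that order, 322 and 225 FPKM, with 0 called. Most of it was Car1, at 281 and 187 FPKM. Over 7 megakaryocyte markers they were 225 and 148 FPKM, with 1 called higher, Rab27b. The error of its log2 ratio was 0.13, where the median of tested genes at like FPKM was 0.33. With each error set to at least that median, Rab27b was not called. Ppbp, not called, was at 4.61 and 9.54 FPKM. Over 6 T and NK cell markers the sums were 15.7 and 19.0 FPKM, and over 6 monocyte and macrophage markers 332 and 316 FPKM. Of these last 5 lists only the T cell gene Cd3g was listed at 0, in the Tgif1-/- group. Their part in the values below was not tested, and in bulk RNA fewer cells of a type and less RNA per cell cannot be told apart.

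The levels spanned a wide range, and Myc was the most abundant network gene in each group. Myc (chromosome 15, positions 61816946 to 61821929) was listed at 322 FPKM in the Tgif1-/- group and 310.3 FPKM in the wild-type group, and 401 and 424 genes of the table had a higher FPKM in those groups. Positions are those of the authors' table, in a mouse build that the sources used here do not name. The log2 ratio of Myc was 0.06, and no error goes with it because its test failed. Mycn, whose product can take over most functions of Myc in mouse development, was at 18.9 FPKM in each of the Tgif1-/- and wild-type groups. Its log2 ratio was -0.0011 with a model SE of 0.21. The model SE is the log2 ratio divided by the statistic in the authors' deposited table. It is the error of their model and not a spread measured here. The 95% interval it gives Mycn runs from 0.747-fold to 1.34-fold.

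Mycl1, the least expressed network gene, was at 1.21 FPKM in the Tgif1-/- group and 0.693 FPKM in the wild-type group. Its log2 ratio of 0.80 was the largest of the network and the least precise, with a model SE of 0.58 and a 95% interval from 0.788-fold to 3.86-fold (p = 0.17 in the authors' deposited table, q = 1.00). With a pseudocount of 1 FPKM the log2 ratio of Mycl1 was 0.38. Myc made up 94.1% of the summed FPKM of the Myc, Mycn and Mycl1 genes in each of the Tgif1-/- and wild-type groups.

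**Figure D1:**
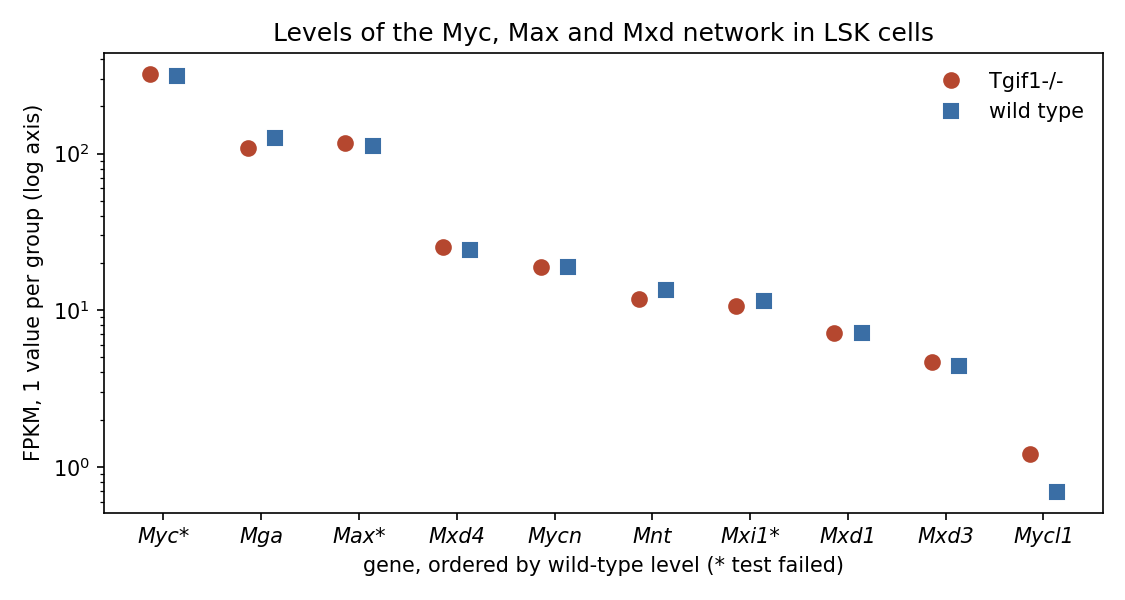
FPKM on a log axis for the 10 network genes, with circles for the Tgif1-/- group and squares for the wild-type group, ordered by wild-type level; each point is the authors' 1 value for a group, so there are no error bars. Myc stands highest and Mycl1 lowest in each group, and Mga and Max change places in the order.

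Max, the common partner of the network, was listed at 117 FPKM in the Tgif1-/- group and 111 FPKM in the wild-type group, a log2 ratio of 0.07 without an error, since its test failed. The 9 genes whose products pair with Max summed to 510 FPKM in the Tgif1-/- group and 515 FPKM in the wild-type group. Their summed level was 4.38 times that of Max in the Tgif1-/- group and 4.63 times in the wild-type group. Myc alone stood at 2.77 times the level of Max in the Tgif1-/- group and 2.79 times in the wild-type group. These are levels of RNA, and no sample-level spread goes with them.

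The 4 Mxd subfamily genes had lower levels than Myc, Max and Mga, and no tested member differed between the groups beyond its error. Mxd4 was the most abundant, at 25.3 FPKM in the Tgif1-/- group and 24.0 FPKM in the wild-type group, and made up 53.0% and 51.2% of the summed FPKM of the subfamily in those groups. Its log2 ratio was 0.07 with a model SE of 0.21. Mxd1, an antagonist of Myc in maturing cells, was at 7.18 FPKM in the Tgif1-/- group and 7.15 FPKM in the wild-type group, with a log2 ratio of 0.01 and a model SE of 0.26. Their 95% intervals run from 0.792-fold to 1.40-fold for Mxd4 and from 0.710-fold to 1.42-fold for Mxd1. Differences inside those limits are compatible with these values.

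Mxd3, known in mouse for expression in cycling cells during S phase, was at 4.67 FPKM in the Tgif1-/- group and 4.37 FPKM in the wild-type group, a log2 ratio of 0.10 with a model SE of 0.34. The table gives Mxd3 the same position as Prelid1, a mitochondrial lipid transfer gene at 110.1 FPKM in the Tgif1-/- group and 118 FPKM in the wild-type group. In GENCODE M21 (GRCm38) these 2 genes lie on opposite strands and share 105 of the 2369 exon bases of Mxd3. The strand setting of the counting is not given, so reads in the shared bases cannot be assigned to either gene. Prelid1, like Gm10197 below, was singled out after its values were seen.

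Mxi1 was listed at 10.6 FPKM in the Tgif1-/- group and 11.4 FPKM in the wild-type group, a log2 ratio of -0.11 with no error because its test failed. It shares its listed position with Gm10197, at 6.30 FPKM in the Tgif1-/- group and 15.7 FPKM in the wild-type group, whose test also failed. Of the 201 exon bases of Gm10197 in GENCODE M21, 194 overlap Mxi1 exons on the opposite strand, and the RefSeq gene table lists Gm10197 as another name of Mxi1. The exons of Mxi1 hold 6823 bases there, so the shared bases are nearly all of Gm10197 and a small part of Mxi1. Reads in the shared bases cannot be told apart without strand. That leaves the Gm10197 value uncertain, and how far it bears on the Mxi1 value was not tested.

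Mnt and Mga both had lower FPKM values in the Tgif1-/- group, and neither passed the test. Mnt, a broadly expressed antagonist of Myc, was at 11.8 FPKM in the Tgif1-/- group and 13.4 FPKM in the wild-type group. Its log2 ratio was -0.19 with a model SE of 0.22 and a 95% interval from 0.648-fold to 1.19-fold (p = 0.41 in the authors' deposited table, q = 1.00), a difference smaller than its error.

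Mga (chromosome 2, positions 119722964 to 119795317), which carries a T-box domain beside its Max-binding domain, had the smallest p of the network. It was at 108 FPKM in the Tgif1-/- group and 125 FPKM in the wild-type group, 13.4% lower in Tgif1-/- by value. Its log2 ratio was -0.21 with a model SE of 0.07 and a 95% interval from 0.784-fold to 0.957-fold. The authors' deposited table gives it p = 0.00468 and q = 0.299, so it was not called, and it stood at rank 168 of the 10730 tested genes by p. The error of Mga was 0.07 where the median of tested genes at like FPKM was 0.18. With each error set to at least that median, the unadjusted p of Mga was 0.249. In the Tgif1-/- group Mga stood at 0.930 times the level of Max, against 1.12 times in the wild-type group. It made up 64.5% of the summed FPKM of Mxd1, Mxi1, Mxd3, Mxd4, Mnt and Mga in the Tgif1-/- group and 67.5% in the wild-type group.

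**Figure D2:**
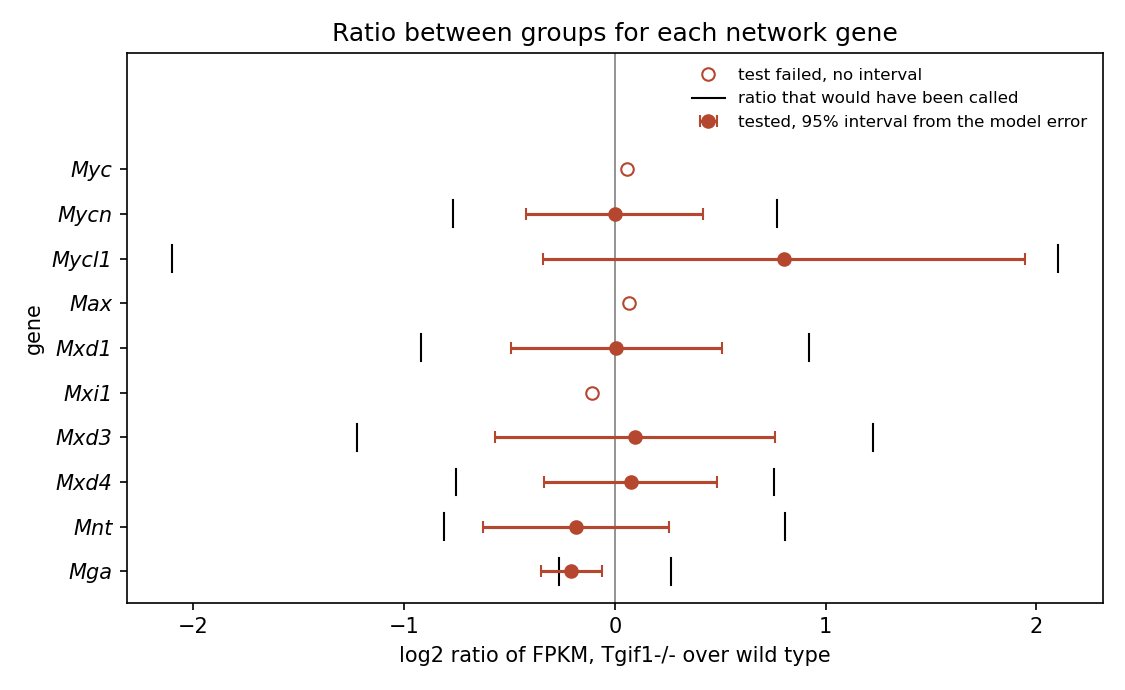
Log2 ratio of FPKM, Tgif1-/- over wild type, for each network gene. Filled points have bars for the 95% interval from the model SE, open points mark the 3 genes whose test failed, and black ticks mark the ratio that would have been called; no filled point lies beyond its ticks, and of the bars only that of Mga leaves out 0.

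The observed ratio that would have been called differed widely among the tested genes. The largest p called over the whole table was 0.000318, and a gene needed a ratio of 3.60 times its model SE to reach it. For Mga that was 1.20-fold, which rests on its small model SE of 0.07, where the median at like FPKM was 0.18. For Mxd4, Mycn and Mnt the needed ratio was 1.69-fold, 1.71-fold and 1.75-fold. For Mxd1 it was 1.89-fold, for Mxd3 2.33-fold and for Mycl1 4.30-fold. Observed ratios smaller than these would not have been called at those model SEs. These are cuts on the observed ratio, and how often a true change of a given size would be called was not tested.

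**Figure D3:**
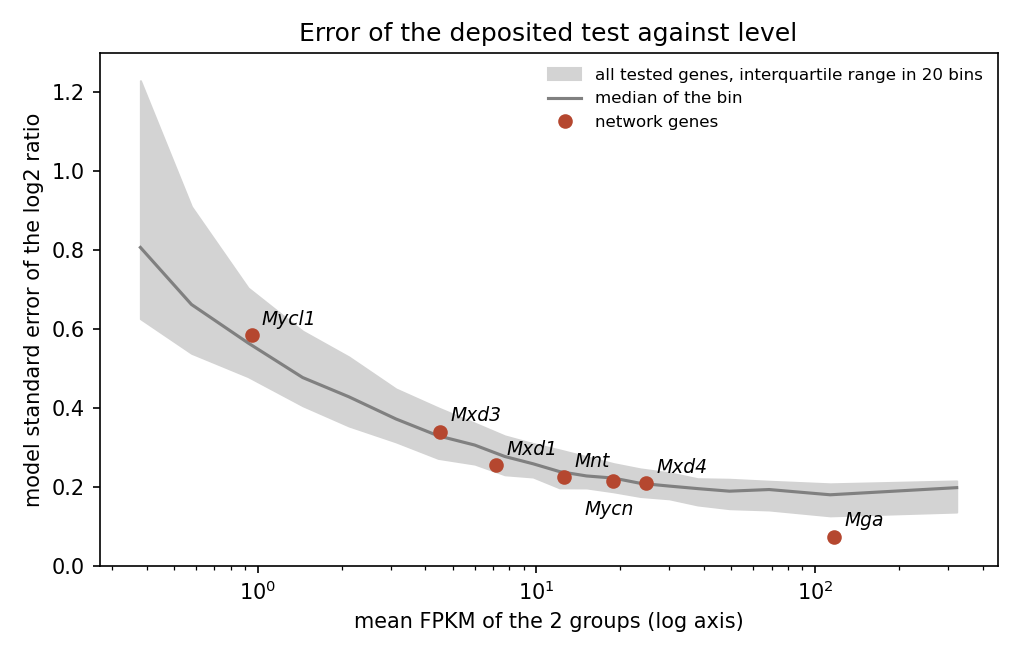
Implied standard error of the log2 ratio against mean FPKM of the groups, on a log axis, with the grey band for the interquartile range and the grey line for the median of all tested genes in 20 bins of level. The points are the 7 tested network genes; 6 lie inside the band and Mga, at 0.07, lies below it.

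Summed by role, activating and repressing partners of Max stood as follows. The Myc, Mycn and Mycl1 genes summed to 343 FPKM in the Tgif1-/- group and 330 FPKM in the wild-type group, and the Mxd subfamily with Mnt and Mga to 168 FPKM in the Tgif1-/- group and 186 FPKM in the wild-type group. The ratio of these sums was 2.04 in the Tgif1-/- group and 1.78 in the wild-type group. Myc and Mga carry most of it, and since the test of Myc failed, no error can be put on it.

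E-boxes stand in the promoters of some network genes. RefSeq promoter sequences (GRCm38.p6, 250 bases before to 50 after a gene's start) were matched for 9 of the 10 genes, with 11 promoters in all, and not for Myc. The E-box, spelled CACGTG and the same on both strands, was found in 3 of the 11 promoters, those of Max, Mxd4 and Mnt, against 7.15% of all 32851 promoters. The letters CTGTCA, a sequence bound by Tgif1, were searched on both strands. They were found in 5 of the 11 promoters, those of Mycn, Max, Mxd1, Mxd3 and Mxd4, against 19.2% of all promoters. With only 11 promoters, neither count is a share to read against all promoters, and enrichment was not tested. The stretches below are shown because they hold the site of the network's own proteins and, in the 2 promoters with both motifs, the site of Tgif1. Capitals mark the motif.
Max E-box, chr12:76962234-76962263, minus strand: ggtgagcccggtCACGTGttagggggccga
Mxd4 E-box, chr5:34187912-34187941, minus strand: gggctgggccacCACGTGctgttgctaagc
Mnt E-box, chr11:74830789-74830818, plus strand: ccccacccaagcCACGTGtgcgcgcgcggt
Max CTGTCA site, chr12:76962368-76962397, minus strand: gcgccctgagctCTGTCAacaagcgagtct
Mxd4 CTGTCA site, chr5:34187839-34187868, minus strand: caagcttcgcatCTGTCAacattctcagct

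The E-box of Max begins 3 bases before the listed start, that of Mnt 123 bases and that of Mxd4 219 bases before it. The CTGTCA sites of Max and Mxd4 begin 137 and 146 bases before the start. The 2 genes with both motifs had log2 ratios of 0.07 (Max, no error) and 0.07 (Mxd4, within its error). Mga held neither motif in its window. A match is a run of letters, and binding was not measured.

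The proteins that work with the network were described through 10 gene lists of partners, cofactors, turnover factors and targets. None of the 103 tested genes of these lists was called by Cuffdiff (0.662% of all tested genes were), and 4 of them had an unadjusted p at or under 0.05, all lower in the Tgif1-/- group. That is 3.88% of the tested list genes, against 5.41% of all tested genes, or 3.55% counting only lower ones. The tests of 44 other list genes failed and 3 had too few reads. By value, 65.0% of the tested list genes had a log2 ratio under 0, against 57.4% of all tested genes, whose median log2 ratio was -0.03.

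**Figure D4:**
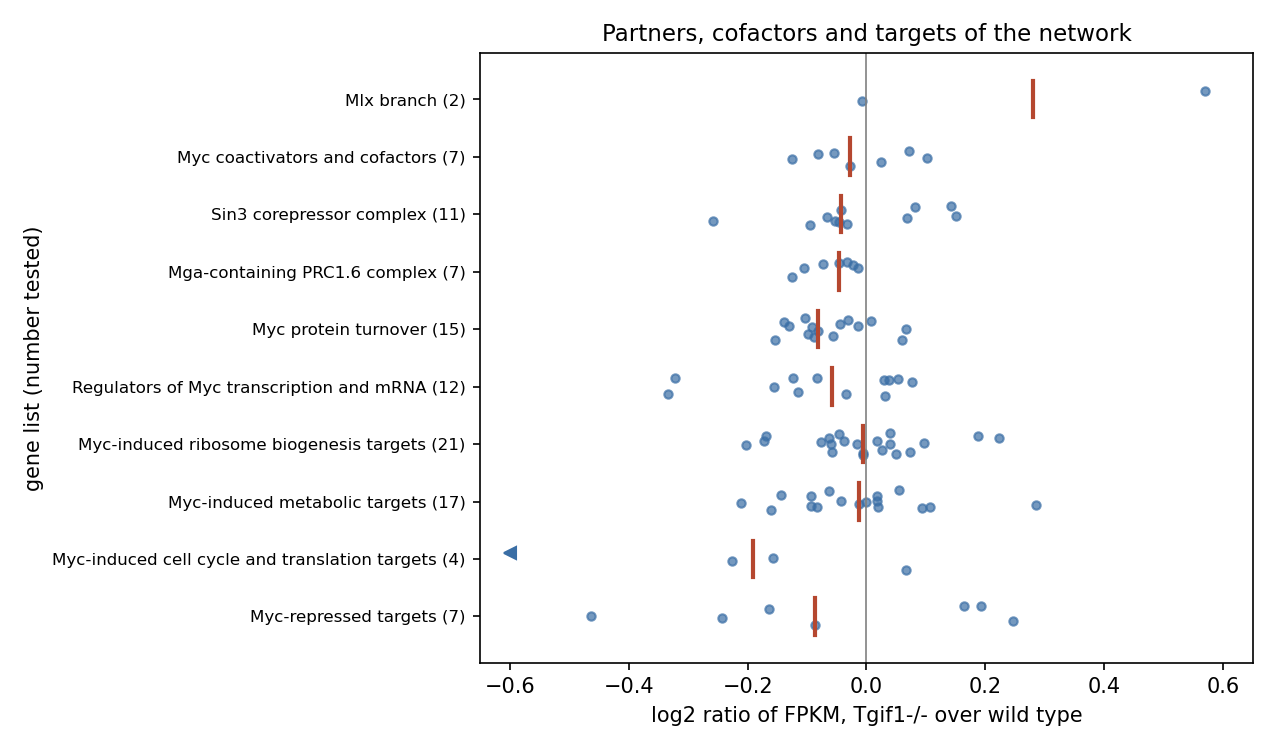
Log2 ratio of FPKM, Tgif1-/- over wild type, for the tested genes of 10 lists; each point is a gene, the red bar is the list median, the number tested stands in brackets, and 1 gene beyond the axis (Tert, at -1.36) is drawn as an arrowhead at the edge. Medians other than that of the 2-gene Mlx list lie between -0.19 and -0.01.

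Partners and cofactors of the network gave no called gene. In the parallel Mlx branch, which senses glucose-derived metabolites, the test of Mlx failed, and Mlxip was at 24.97 FPKM in the Tgif1-/- group and 25.1 FPKM in the wild-type group. The other tested gene, Mlxipl, was under 1 FPKM, at 0.516 FPKM in the Tgif1-/- group and 0.348 FPKM in the wild-type group, with a log2 ratio of 0.57 (p = 0.442 in the authors' deposited table), and the median of these 2 genes was 0.28. The 7 tested coactivators had a median log2 ratio of -0.03, with the cyclin Ccnt1, which acts in transcript elongation, at 131 and 143 FPKM and the chromatin ATPase Ruvbl1 at 84.4 and 78.7 FPKM in the Tgif1-/- and wild-type groups. The Sin3 corepressor list had a median of -0.04 over 11 tested genes. Its scaffold Sin3a, which the Mxd proteins and Mnt bind directly, was at 223 FPKM in the Tgif1-/- group and 267 FPKM in the wild-type group, with a log2 ratio of -0.26, a model SE of 0.14 and p = 0.0624 in the authors' deposited table. Hdac1, a deacetylase of that complex, was at 142 and 146 FPKM in the Tgif1-/- and wild-type groups.

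The Polycomb complex that holds Mga had 7 tested members besides it, all 7 with a log2 ratio under 0, from -0.12 to -0.01. The tests of 3 other members failed, and their log2 ratios were 0.17 (L3mbtl2), -0.09 (Tfdp1) and -0.01 (Cbx3). The median of the 7 tested members was -0.05, against -0.03 for all tested genes, and their median model SE was 0.22. Of these 7 genes, 5 lay under the median of all tested genes. Yaf2 and Rybp, which bind the Ring subunits, were at 24.0 and 26.1 FPKM and at 20.8 and 22.4 FPKM in the Tgif1-/- and wild-type groups.

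Factors that act on Myc itself gave no called gene either. The 15 tested genes of Myc protein turnover had a median log2 ratio of -0.08, with Aurka, a kinase known from human tumour cells to protect the N-Myc protein from degradation, at 23.1 and 25.7 FPKM and Gsk3b, a kinase that marks Myc for degradation, at 88.7 and 95.3 FPKM in the Tgif1-/- and wild-type groups. The 12 tested regulators of Myc transcription and mRNA had a median of -0.06. Among them E2f4, part of the complex through which TGF-beta signalling represses Myc, was at 38.0 FPKM in the Tgif1-/- group and 47.5 FPKM in the wild-type group, with p = 0.133 in the authors' deposited table. Rbl2, a pocket protein that pairs with E2f4, was at 69.5 and 77.5 FPKM in the Tgif1-/- and wild-type groups.

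Genes that Myc is known to induce in ribosome production and metabolism had list medians of -0.01. The 21 tested ribosome biogenesis targets had log2 ratios from -0.20 to 0.22. At those ends stood Ddx18, an RNA helicase, at 126 FPKM in the Tgif1-/- group and 145 FPKM in the wild-type group (p = 0.0458 and q = 0.897 in the authors' deposited table), and Nop16, a nucleolar protein, at 48.4 and 41.4 FPKM in the same groups. The 17 tested metabolic targets ran from -0.21 to 0.28. Gart, an enzyme of purine synthesis, was at 49.3 FPKM in the Tgif1-/- group and 55.1 FPKM in the wild-type group (p = 0.0248 and q = 0.656 in the authors' deposited table), and Nme1, a nucleoside diphosphate kinase, was at 99.7 and 81.9 FPKM in the same groups. The model SEs of Ddx18 and Gart were small, 0.10 and 0.07, where the medians at like FPKM were 0.18 and 0.19.

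Of 9 cell cycle and translation targets only 4 were tested, with a median log2 ratio of -0.19. Cdc25a, a phosphatase that activates cyclin-dependent kinases, was at 15.1 FPKM in the Tgif1-/- group and 16.8 FPKM in the wild-type group, with p = 0.0041 and q = 0.28 in the authors' deposited table. As for Mga, its model SE was small, 0.05 where the median at like FPKM was 0.23. Tert, the catalytic subunit of telomerase, was at 0.906 FPKM in the Tgif1-/- group and 2.32 FPKM in the wild-type group, with a log2 ratio of -1.36 and a model SE of 1.04.

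Genes that Myc is known to repress had a median log2 ratio of -0.09 over 7 tested genes, 3 of them above 0 and 4 under 0. With Pdgfrb, whose test failed, included, the median was 0.04. Cdkn1a, the cell cycle inhibitor p21, was at 34.3 FPKM in the Tgif1-/- group and 47.3 FPKM in the wild-type group, with a log2 ratio of -0.46, a model SE of 0.21, and p = 0.0272 and q = 0.689 in the authors' deposited table. Ndrg1, a stress-response gene, was at 76.4 and 90.4 FPKM in the Tgif1-/- and wild-type groups, with p = 0.0529 in the authors' deposited table.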

How the data were processed

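RNA of LSK cells was sequenced, and the submitters' processing notes name TopHat and Cuffdiff, without versions, and the human build hg19, although all identifiers are mouse ones. The deposited table holds 1 FPKM value per group, computed by the authors, and per the file headers the first value is the Tgif1-/- group. It also holds the authors' log2 fold change and test statistic, a score, with wild type on top of the fold change, and the authors' p-value and q-value. The depth is unknown.

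Log2 ratios were computed as Tgif1-/- over wild type. The model SE is that ratio divided by the deposited statistic. The deposited p-value equalled the normal two-sided value of the statistic within 0.001 for all 10683 genes checked. No test over samples was possible. Of the 22381 table positions, 173 equal those of GENCODE M21, and starts are printed counting from 1. The members, lists and alternatives were chosen with earlier results of these data known. All 10 members are named, and from each list, among genes reaching 1 FPKM in either group, up to 4 called ones or, with none called, the 2 tested ones with the smallest p. Mlxipl, Usf2, Mitf and some list genes whose test failed are named outside this rule. Where a symbol had several lines, the one of highest mean FPKM was used. The error floor was run on simulated data whose spread was set to the model SEs. That run could not show whether those errors are too small. Python 3.11.15, pandas 2.3.3, numpy 2.4.6 and scipy 1.17.1 were used.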

Additional observations from a re-analysis of the deposited data

How the results depend on the processing

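No network gene was called with q at or under 0.01 or 0.1, with genes under 1 FPKM left out, with ratios centred on the median of tested genes, or with the error floor (each model SE set to at least the median of its bin of like FPKM). At an unadjusted p at or under 0.05 there was 1, Mga. Its adjusted p was 0.286 without genes under 1 FPKM, 0.603 after centring and 1.00 with the error floor. Among all tested genes 71 were called, 39 at q 0.01, 99 at q 0.1, 67 after centring, 66 with at least 1 FPKM and 21 with the error floor. The log2 ratio of Mycn became 0.031 after centring, which follows from its value near 0, and the other members kept their sign with pseudocounts of 0.1 and 1 and after centring. No pathway list had a called gene at q 0.01 or 0.1, with the error floor or with at least 1 FPKM, and 4 list genes had an unadjusted p at or under 0.05. List counts were not run after centring. Centring turned the sign of 3 list medians, the minimum of 1 FPKM that of 1 and the inclusion of failed genes that of 1. No paired analysis was possible because the groups share no replicate numbers and the table holds no value per sample, which also kept single samples from being left out. Depth is unknown, and the lowest level, that of Mycl1, went with the widest 95% interval.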

Other observations

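Other factors that bind E-box or E-box-like sites without Max were looked up after the network's values had been seen. Of 10 found in the table, 8 were tested, and Cuffdiff called 0 of them, with 0 also at an unadjusted p at or under 0.05 in the authors' deposited table, against 0.662% and 5.41% of all tested genes. So few genes give no share to read against those. Usf2, a ubiquitous E-box activator, was at 76.4 FPKM in the Tgif1-/- group and 76.8 FPKM in the wild-type group. Srebf1, which controls lipid synthesis, was at 98.5 and 88.5 FPKM, and Bhlhe40, a repressor of clock genes, at 2.91 and 1.98 FPKM in the Tgif1-/- and wild-type groups. Mitf, a factor that mast cells need, was at 48.0 FPKM in the Tgif1-/- group and 33.1 FPKM in the wild-type group, with a log2 ratio of 0.53 and a model SE of 1.91, where the median at like FPKM was 0.20.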
